A study of Mus musculus with 2 samples.

Results

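The genes described here are 10 markers of mesothelium and epicardium: Wt1, Bnc1, Bnc2, Upk3b, Upk1b, Lrrn4, Msln, Tcf21, Gpm6a and Muc16. They were measured by every probe set whose platform annotation gives one of these symbols alone, which came to 18 of 34945 probe sets named for a single gene. All 10 had a probe set, among 18193 named genes in all. The 10 genes were proposed with earlier results of these arrays known, chosen by the same differences between these 2 arrays that are given below, so their values are a description and are not tested. Both samples were mouse Flk1+Tie2+ cells, the fraction of embryoid bodies that holds endothelium, sorted on day 5 of differentiation from A2lox.Mesp1 embryonic stem cells of the 129/Ola background. This line carries a Mesp1 transgene that doxycycline (dox) switches on. One culture (dox) was given 250 ng/mL of dox between days 2 and 4, and the other (no dox) was left untreated. Each condition has 1 array, so no difference has a replicate check or a p-value, and dox itself cannot be told apart from Mesp1, since no dox-treated cells without the transgene were analysed here.

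Mesothelium is the flat epithelium that lines the body cavities and covers the organs in them. Epicardium is the mesothelium of the heart, which grows over the heart from the proepicardium, and some of its cells turn into mesenchyme and give rise to fibroblasts and mural cells. Wt1, Tcf21, Bnc1 and Bnc2 encode nuclear factors of these layers, and the other members encode proteins of the cell surface.

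With dox, the nuclear factors Wt1, Bnc1, Bnc2 and Tcf21 and the surface genes Upk3b, Upk1b and Lrrn4 were 2-fold or more higher by their brightest probe sets, while Gpm6a was 2-fold or more lower. Msln and Muc16 lay within 2-fold and were dim on both arrays. Differences are dox minus no dox on the scale log2(signal + 16), and folds are the same differences turned back to a linear scale. A pseudocount of 16 understates the change of dim genes. The count of 7 higher and 1 lower among 10 genes stands beside 4.77% higher and 2.04% lower among all named genes. Of all 18 probe sets 9 were 2-fold or more higher and 2 lower, beside 4.72% and 2.01% of all named probe sets. Because the members were proposed from this contrast, nothing is read from these shares. The median difference was 2.04 over the 10 genes and 0.04 over all named genes. In sorted bulk RNA, a change in the number of cells of a type cannot be told apart from a change in RNA per cell.

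**Figure D1:**
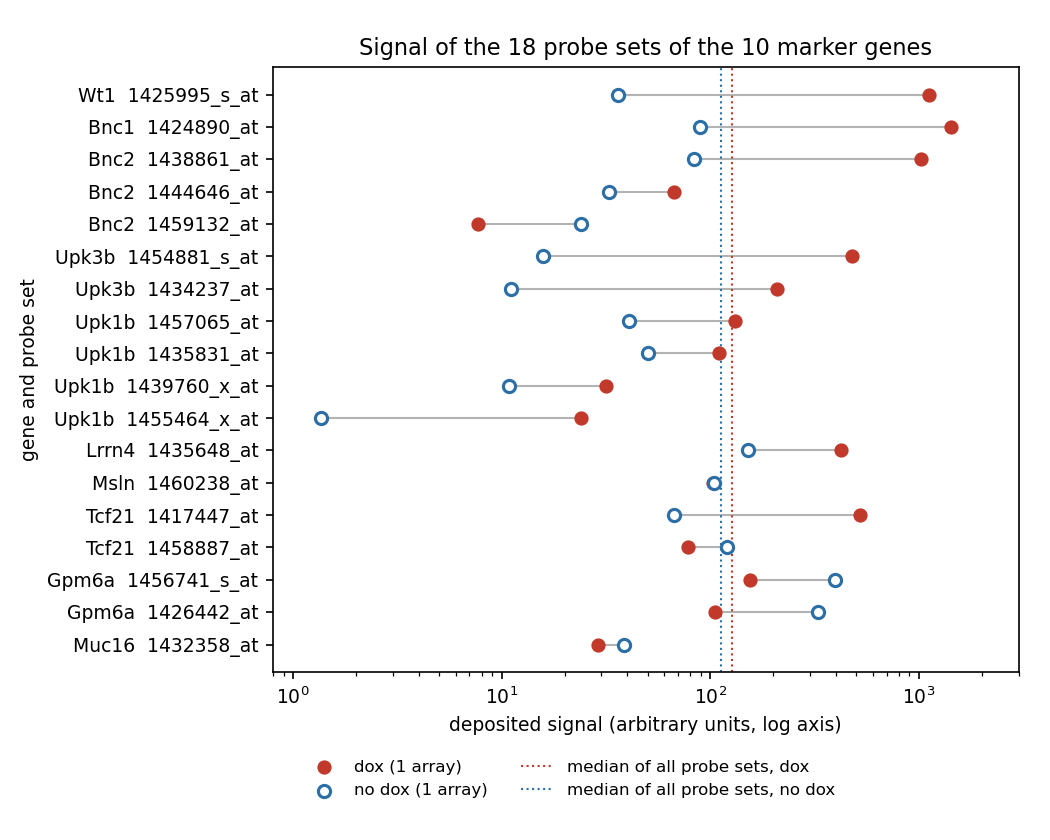
Deposited signal (log axis, arbitrary units) of each probe set of the 10 marker genes on the dox array (filled red) and the no dox array (open blue), 1 array each. Dotted lines mark the median of all probe sets, 127 with dox and 112 without; Wt1, Bnc1, Upk3b and the brightest probe sets of Bnc2 and Tcf21 lie above it with dox and below it without.

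The induced gene and the genes of the sort were set beside the labels. Mesp1 had a signal of 10977 with dox and 2433 without, and whether its probe set reads the transgene is not known here. Kdr (Flk1) had 10733 with dox and 10139.7 without, and Tek (Tie2) had 9277 with dox and 8799 without. Both were bright on both arrays, so they bear on the sort and cannot tell which array is dox. All 10 endothelium markers were brighter than the array median on both arrays, between 464 and 10733 with dox and between 489 and 10139.7 without. The median signal of all probe sets was 127 with dox and 112 without, and the lowest value of both arrays was 1, shared by 1102 probe sets with dox and 1165 without. Over all named genes 867 were 2-fold or more higher and 372 lower, a split that became 679 and 582 when each array was divided by its median. That scaling moved the median difference of all genes to -0.11, against 0.04 as deposited.

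The proximal promoters of the markers, printed here beside each other, show how unlike their start regions are, for 3 genes that were higher and for Gpm6a, which was lower. RefSeq windows of 300 bases (build GRCm38.p6), from 250 before to 50 after a gene's start, were at hand for 7 of the 10 genes, 8 windows in all. Those printed belong to genes past 2-fold and lie at the outer start of the gene in the RefSeq positions. The windows of Bnc2, Lrrn4 and Muc16 and a second one of Gpm6a do not lie there and are not printed. Capitals mark matches, on either strand, to CANNTG (the E-box of basic helix-loop-helix factors), to GATAA (the core bound by GATA factors), to GCGTGGG (a short form of the site shared by WT1 and EGR factors) or to GGAATG (the TEAD site); no matches overlapped.
Bnc1, chr7:81992250-81992549, minus strand: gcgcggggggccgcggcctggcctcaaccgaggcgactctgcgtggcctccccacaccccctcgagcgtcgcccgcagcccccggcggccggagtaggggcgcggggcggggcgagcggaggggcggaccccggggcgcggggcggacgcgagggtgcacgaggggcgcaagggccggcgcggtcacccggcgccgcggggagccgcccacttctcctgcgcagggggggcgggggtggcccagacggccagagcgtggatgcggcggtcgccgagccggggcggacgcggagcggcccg
Upk3b, chr5:136038246-136038545, plus strand: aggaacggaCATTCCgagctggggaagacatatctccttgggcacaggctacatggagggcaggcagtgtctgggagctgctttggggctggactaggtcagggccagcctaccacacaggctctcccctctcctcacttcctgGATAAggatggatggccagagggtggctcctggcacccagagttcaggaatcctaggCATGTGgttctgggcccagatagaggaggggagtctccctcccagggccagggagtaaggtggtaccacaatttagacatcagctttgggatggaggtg
Tcf21, chr10:22820094-22820393, minus strand: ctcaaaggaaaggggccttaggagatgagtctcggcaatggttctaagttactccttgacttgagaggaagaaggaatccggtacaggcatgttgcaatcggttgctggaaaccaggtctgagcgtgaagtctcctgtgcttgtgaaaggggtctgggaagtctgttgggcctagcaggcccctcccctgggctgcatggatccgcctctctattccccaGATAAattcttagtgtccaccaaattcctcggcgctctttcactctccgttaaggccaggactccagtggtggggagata
Gpm6a, chr8:54779184-54779483, plus strand: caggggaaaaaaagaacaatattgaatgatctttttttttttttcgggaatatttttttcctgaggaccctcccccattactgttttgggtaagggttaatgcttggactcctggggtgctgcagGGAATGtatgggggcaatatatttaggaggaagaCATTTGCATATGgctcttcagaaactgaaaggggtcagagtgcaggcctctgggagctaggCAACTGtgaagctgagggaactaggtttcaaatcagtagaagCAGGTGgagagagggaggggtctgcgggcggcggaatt
The Bnc1 window held none of the 4 motifs and was 83.3% G and C, against a median of 52.7% over 32851 windows of all genes. The Upk3b window, at 58.7% G and C, held a TEAD site at position -241, GATAA at -106 and an E-box at -49, counted from the gene's start. The Tcf21 window held GATAA at position -30 as its single match. The printed Gpm6a window held 4 E-boxes, 2 of them side by side at -91 and -85, and a TEAD site at -125. The second Gpm6a window, at another start, held 1 E-box and no other match, and was 36% G and C. The matches given for Gpm6a thus depend on which start is taken. Over all windows the E-box stood in 72.3%, GATAA in 25.4%, GGAATG in 14.7% and GCGTGGG in 5.04%, and GCGTGGG was in none of the 8 windows of the markers. Of the genes that were higher and are not printed, Bnc2 had 1 E-box (36.3% G and C) and Lrrn4 had 1 TEAD site (58% G and C). All these matches are letters in a window, not measured binding.

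Wt1, a zinc finger factor of epicardium, mesothelium, kidney and gonad, had the largest difference of the 10. Its only probe set had a signal of 1118 with dox and 35.9 without, which is 21.8-fold higher (log2 difference 4.45). Only 16 of the 18193 named genes, Wt1 included, had a difference as large or larger. The probe set stood above 76.2% of all named probe sets with dox and above 24.3% without, a comparison of ranks that does not rest on scaling between the arrays. Its ID ends in _s_at, the mark of a probe set that can match more than 1 transcript, and no other Wt1 probe set was there to compare.

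The basonuclins Bnc1 and Bnc2, a pair of related zinc finger proteins, were both higher by their brightest probe sets. Bnc1, known from keratinocytes, germ cells and mesothelium, had 1422 with dox and 89.5 without (13.6-fold, log2 difference 3.77), from a single probe set. Bnc2 had 1025 with dox and 83.4 without by its brightest probe set (10.5-fold, log2 difference 3.39). Its other probe sets were dim on both arrays and disagreed. The first had 66.9 with dox and 32.8 without (0.77), and the second had 7.73 with dox and 23.9 without (-0.75). The difference of Bnc2 thus rests on 1 of 3 probe sets. Their range of 4.14 log2 units was reached by 0.169% of the 2366 genes with 3 probe sets, whose median range was 0.53. Bnc2 was chosen for its difference and those genes were not, so this share does not measure how unusual the disagreement is.

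Tcf21, a basic helix-loop-helix factor of epicardium and of the fibroblasts that derive from it, gave opposite readings. One probe set had 523 with dox and 67.1 without, 6.48-fold higher (log2 difference 2.70). The other had 78.4 with dox and 120.15 without (-0.53). A range as large, 3.23 log2 units, was seen in 0.383% of the 4695 genes with 2 probe sets, a share with the same limit as that of Bnc2. The higher reading comes from the probe set designed on a RefSeq transcript and the other from an expressed sequence tag, per the accessions in the platform annotation. By the same accessions, the higher readings of Bnc2, Upk3b, Upk1b and Lrrn4 also come from expressed sequence tags. Which reading of Tcf21 holds was not tested.

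Among the surface genes, Upk3b had the largest difference. Upk3b encodes a uroplakin, one of the membrane proteins first known from the bladder lining, and it marks mesothelium. Its brightest probe set had 475 with dox and 15.8 without (15.4-fold, log2 difference 3.95), and the other had 209 with dox and 11.0 without (8.35-fold, 3.06). Both were dim without dox and above the array median with dox. Both were designed on the same sequence, per the platform annotation, so they are not separate readings.

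Upk1b, a tetraspanin uroplakin, was higher by a smaller amount that held in direction across all 4 of its probe sets. The brightest had 132 with dox and 40.6 without (2.61-fold, log2 difference 1.38). The next had 110.2 with dox and 50.2 without (0.93), just short of 2-fold. Of the remaining pair, which can cross-hybridise by their IDs, one had 31.6 with dox and 10.8 without (0.83). The other had 24.0 with dox and 1.36 without (1.20), its signal without dox close to the floor of the table. It was designed on the same sequence as the probe set just short of 2-fold, per the platform annotation, so the 4 are not all separate readings. The range of 0.55 log2 units over the 4 probe sets was no wider than the median of 0.66 for the 1093 genes with 4 probe sets. It rests on the pseudocount, since the ratios of the signals themselves, dox over no dox, ran from 2.19 to 17.6.

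Lrrn4, a leucine-rich repeat membrane protein that is a mesothelial marker, had 423 with dox and 152 without (2.62-fold, log2 difference 1.39) from a single probe set. It was the only one of the 7 higher genes whose brightest probe set was above the array median without dox as well.

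Msln and Muc16, a pair of surface glycoproteins that bind each other and define mature mesothelium, differed little. Msln, which encodes mesothelin, had 103 with dox and 104.5 without (log2 difference -0.02). Muc16, a large membrane mucin, had 29.05 with dox and 38.6 without (-0.28). Both were below the array median on both arrays, so these values do not show whether either transcript was present.

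Gpm6a, a membrane glycoprotein of neurons that is also used as a mesothelial marker, went the other way in both of its probe sets. The brighter had 154 with dox and 397 without, 2.43-fold lower (log2 difference -1.28). The other had 105 with dox and 329.5 without, 2.85-fold lower (-1.51). A difference as low as that of the brighter probe set was found in 1.01% of named genes.

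**Figure D2:**
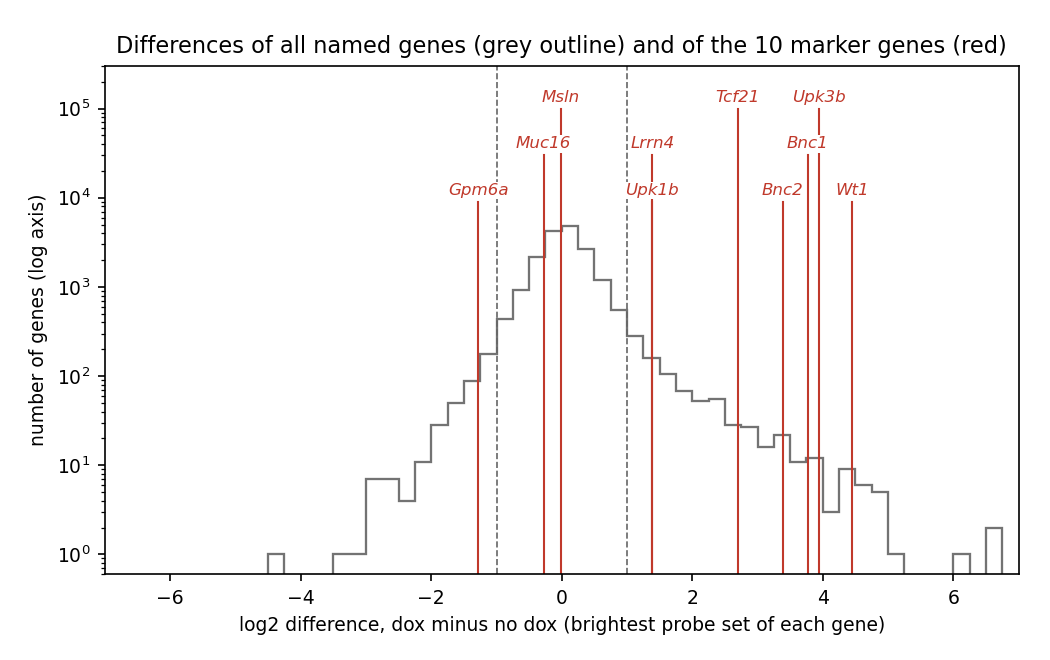
Number of named genes (grey outline, log axis) by log2 difference, dox minus no dox, of the brightest probe set, in steps of 0.25. Red lines mark the 10 marker genes and dashed lines the 2-fold limits; Wt1, Upk3b, Bnc1, Bnc2 and Tcf21 lie in the far upper tail, Lrrn4 and Upk1b (whose lines overlap) just past 2-fold, Msln and Muc16 in the middle and Gpm6a below.

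Dimness set the limits of these readings. The brightest probe sets of 8 of the 10 genes reached the median on either array, 6 of them through the dox array alone and 2, Lrrn4 and Gpm6a, on both. The size of the fold of the 6 depends on how the low signal without dox is treated. For Wt1 the log2 difference was 4.92 with a pseudocount of 1 and 3.56 with 64, and for Upk3b it was 4.82 and 2.76. Without replicates, a measure of spread can be had only from genes with several probe sets, whose differences had a pooled SD of 0.45 log2 units over 9010 genes. It was 0.51 over probe sets with a mean signal between 12.7 and 756, the range of the markers. This SD says nothing of variation between cultures, or of amplification, labelling and hybridisation, which the probe sets of an array share.

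Beside the counts of each gene list below stand 4.77% higher and 2.04% lower among all named genes. Of 15 named family relatives of the markers 2 were 2-fold or more higher and 1 was lower. These 3 were among only 5 relatives that reached the median on either array, and the other 10 were too dim to read. Gpm6b, the paralogue of Gpm6a in the same proteolipid family, was higher, opposite to Gpm6a, with 3693 with dox and 924 without (3.95-fold). Its other probe sets gave log2 differences of 1.28 and 0.31. Lrrn2, a relative of Lrrn4, had 203 with dox and 64.4 without (2.73-fold). Tcf15, a basic helix-loop-helix factor of somites and a relative of Tcf21, had 528 with dox and 1085 without (2.02-fold lower). The uroplakins Upk1a, Upk2 and Upk3a, named after their values were seen, had log2 differences of -0.15, -0.03 and -0.55, of which Upk2 alone was not dim.

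Of 18 further epicardial and proepicardial genes 9 were at least 2-fold higher and none was at least 2-fold lower, with a median of 0.998. Sfrp1, a secreted Wnt inhibitor, had 2148 with dox and 90.7 without (20.3-fold), with log2 differences between 0.29 and 4.34 over 5 probe sets. Gata4 and Gata5, zinc finger factors of heart and proepicardium, were 12.3-fold and 10.3-fold higher by their brightest probe sets, and their other probe sets gave log2 differences of 1.39 and 0.60. Several genes closely tied to epicardium, named after their values were seen, were dim. Tbx18, a T-box factor of the proepicardium and one of the 9, had 69.1 with dox and 11.5 without by its brighter probe set (3.09-fold higher, log2 difference 1.63) and 46.5 with dox and 30.9 without by the other (0.42). Aldh1a2, the retinoic acid synthesis enzyme of epicardium, was at the floor of 1 on both arrays, by its only probe set. Tbx5 had 21.5 with dox and 9.71 without, and Sema3d had 4.75 with dox and 14.6 without.

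The other mesothelial and simple epithelial genes differed in part, with 4 of 18 higher, none lower and a median of -0.11. The keratins of simple epithelia Krt8 and Krt18 and the membrane linker Ezr were higher. Krt8 had 5934 with dox and 1095 without (5.35-fold, and 4.96-fold and 5.23-fold by its other probe sets). Krt18 had 3467 with dox and 969 without (3.53-fold), and Ezr had 3527 with dox and 985 without (3.54-fold). Krt19 was the other higher gene (log2 difference 1.41). Of the 9 genes that reached the median on either array, the rest lay within 2-fold. They were Cldn3 (-0.74), Pdpn (-0.47), Slpi (-0.16), Podxl (-0.15) and Thbd (0.32). Cdh1 (-0.66), Epcam (-0.46) and the mesothelial marker Calb2 (-0.55) were dim on both arrays. Krt19 and these genes within 2-fold were named after their values were seen.

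Retinoic acid genes included 4 of 14 higher and 1 lower. Cyp26b1, which breaks down retinoic acid, was 12.7-fold higher (3795 with dox and 283 without), the receptor Rarb 5.90-fold and the retinal reductase Dhrs3 2.89-fold. Crabp1, a retinoic acid binding protein, was the other higher gene (log2 difference 1.53) and Cyp26a1 the lower one (-1.25), both named after their values were seen. Of 14 genes reported as Wt1 targets 2 were higher and none lower. They were Snai1 (6.57-fold), a repressor of epithelial genes, and the integrin chain Itga4 (3.24-fold, also one of the 9 higher epicardial genes), whose 5 probe sets ranged from -0.41 to 2.38. Nes, the third by size, had a difference of -0.97. Of 18 genes of epicardial signalling and the Hippo pathway 4 were higher and none lower. Pdgfra and Pdgfrb, receptors of epicardium-derived mesenchyme, were 7.03-fold and 4.81-fold higher, and Ccn2, a matricellular protein and YAP target, 5.45-fold. The lowest differences over their probe sets were 1.46 for Pdgfra and 1.49 for Pdgfrb. The other was Fgfr2 (log2 difference 1.31). Ccn1, of the same list, had a difference of -0.35, with its 4 probe sets from -0.65 to 1.11. Yap1 (0.11), Wwtr1 (0.30), Tead1 to Tead4, Lats1 and Lats2 lay within 2-fold as deposited. Fgfr2 and the genes named after it were named after their values were seen.

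Several markers are shared with other tissues, whose own genes were counted as well. Of 7 podocyte and kidney genes 1 was higher, Foxc2 (3.60-fold), and Synpo differed by 0.77. Of 8 gonad genes 1 was higher, Sox9 (27.8-fold, a gene also of heart valve and cartilage, with log2 differences of 1.25 to 4.80 over 3 probe sets), while Nr5a1 and Foxl2 differed by 0.41 and 0.42. None of 10 urothelium and keratinocyte genes passed 2-fold in either direction, with Krt5 at 0.50, Krt10 at 0.23 and Krt1 at -0.17. Of 12 neural genes 1 was higher (Stmn2, 3.97-fold) and 2 were lower, Sox1 (-2.48) and Gfap (-1.13), both dim and named after their values were seen, with Nes at -0.97 and Ncam1 at 0.88. The other probe set of Sox1 gave 1.49, that of Stmn2 0.70, and those of Gfap reached 0.14. Of 10 endoderm genes 1 was lower, Cdx2 (7.71-fold, from 1 of 2 probe sets, the other at 0.78), with Apoa1 at -0.18 and Cldn6 at -0.15. Only 5 of these 10 reached the median on either array, so 1 lower gene does not speak for the list.

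Markers of other mesoderm cells also differed between the arrays. Of 16 smooth muscle and fibroblast genes, 11 were at least 2-fold higher, and none was lower to that extent. The 11 include Tcf21, itself one of the markers, and Pdgfra and Pdgfrb, already counted among the signalling genes. The summed signal of the 16 genes was 61300.1 with dox and 24465 without. Most of the sum without dox came from Vim, which had 19349 with dox and 18915 without (log2 difference 0.03). The sums thus understate the difference of the other genes of this list. Vim was named after its values were seen. Of the 16 genes 1, Cnn1, was at the floor without dox. Tagln was 35.3-fold higher, Lum 24.4-fold and Col3a1 19.4-fold. Of 15 cardiomyocyte genes 6 were higher and none lower, with a summed signal of 9307 with dox and 3310.4 without and none at the floor. Myl4 was 14.7-fold higher, Tnnt2 10.8-fold and Myh7 6.50-fold. The other probe set of Myl4 gave a log2 difference of 0.33, and the lowest of 3 for Tnnt2 gave 0.55. Of 10 blood genes 5 were lower and none higher (summed signal 7880.2 with dox and 14889 without), among them Myb 7.20-fold, Hbb-bh1 5.99-fold and Gfi1b 3.96-fold. The 3 probe sets of Myb ranged from -2.94 to -1.11 and those of Hbb-bh1 from -3.67 to -2.56. The others were Laptm5 (2.34-fold) and Hba-x (2.01-fold), named after their values were seen. Of 10 endothelium genes 1 was lower and none higher (summed signal 48825 with dox and 53446 without). The lower gene was Cldn5, by a log2 difference of -1.40, with Esam at -0.35 and Flt1 at -0.25. The 10 marker genes summed to 5404 with dox and 1024 without. The part of these cell types in the differences of the mesothelial and epicardial markers was not tested.

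**Figure D3:**
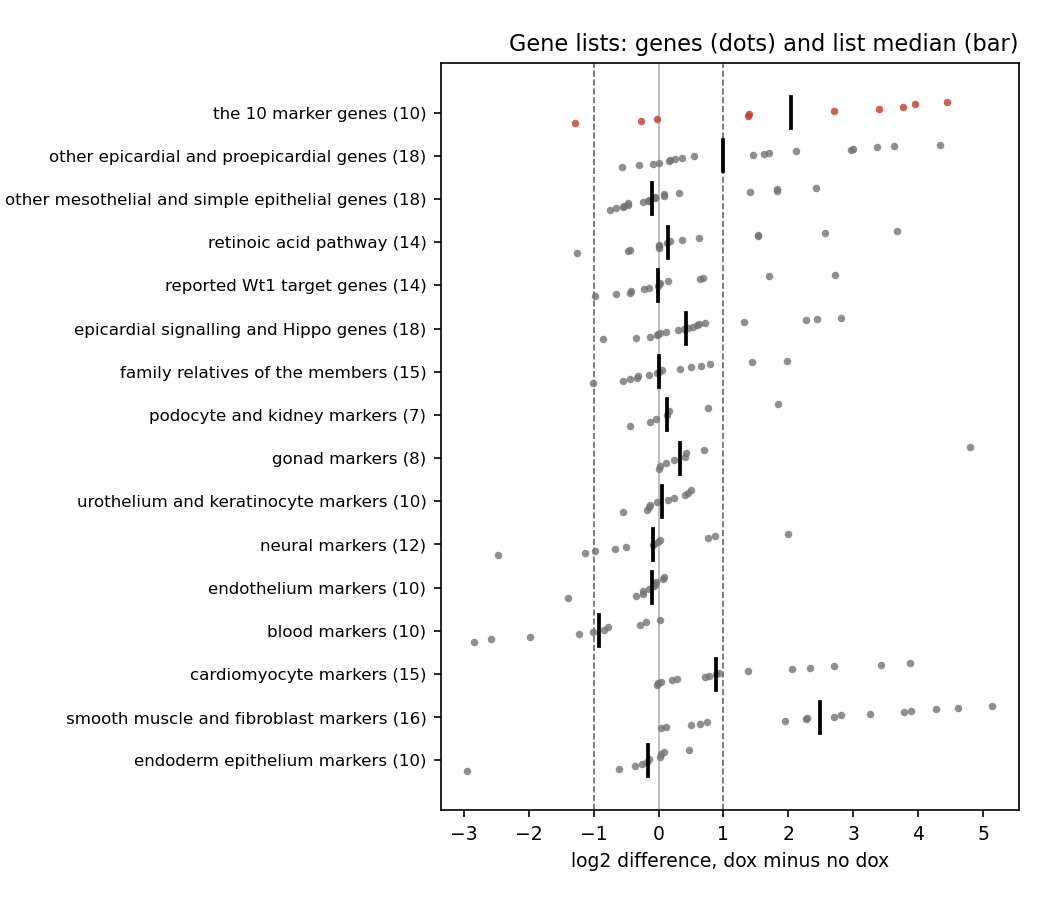
Log2 difference, dox minus no dox, of each gene (dots, brightest probe set) in the 10 marker genes (red) and 15 other lists (grey), with the number of named genes in brackets, the list median as a black bar and dashed lines at 2-fold. The marker genes have a median of 2.04, the smooth muscle and fibroblast list 2.49, the cardiomyocyte list 0.89, the endothelium list -0.11 and the blood list -0.92.

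Genes next to the markers on the chromosome were also looked up after the markers' values were seen. The nearest protein-coding gene with a named probe set was taken on each side, in the gene order of RefSeq assembly GRCm38.p6. Of these 20 neighbours 2 were 2-fold or more higher, none lower, and their median difference was 0.05. The higher ones were Hdgfl3 beside Bnc1 (2190 with dox and 968 without, log2 difference 1.16) and Cntln beside Bnc2 (424 with dox and 168 without, 1.26). The neighbours of Wt1, Eif3m and Them7, differed by -0.10 and 0.40. Upk3bl, a gene of the same family beside Upk3b, had 135 with dox and 71.7 without (0.78).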

How the data were processed

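RNA of the sorted cells (100 ng per sample, amplified into biotin-labelled RNA) was hybridised to Affymetrix 3' arrays, per the labels' protocols. The deposited table gives a linear intensity for each of 45037 probe sets on both arrays. The authors' summarisation and scaling of the probes are not given in the sources used here, and no detection calls were used. The depth of an array has no counterpart here, and the number of arrays limits the precision.

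Probe sets were named through the platform annotation. A single symbol was given for 34945, several for 932 (none of them with a marker gene among them) and none for 9160. Intensities were taken as log2(signal + 16), without a filter on dim values. The probe set with the highest mean intensity over the arrays stood for its gene. A size of 2-fold was used in place of a test. All 10 members were described by every probe set. Mesp1, Kdr and Tek were also named and, of each other list, the 3 genes with the largest absolute difference that reached the array median, by their brightest probe sets. The members and lists were chosen with earlier results of these data known. Older symbols in the lists were updated through RefSeq names (GRCm38.p6). A comparison of the Bnc1 and Bnc2 proteins was planned and not made. Calculations used Python 3.11.15, numpy 2.4.6 and pandas 2.3.3, and the steps were tested on simulated data. The simulation planted changes only in the brighter probe sets, with noise smaller than the SD between probe sets. It therefore does not cover calls at the dim signals of the markers. Alternatives changed the pseudocount, the scaling, the filter, the probe sets kept and how a gene is represented.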

Additional observations from a re-analysis of the deposited data

How the results depend on the processing

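A total of 9 alternatives was run on the counts, the median and the single genes. No gene past 2-fold changed sign under an alternative that gave it a value, and of 72 single-gene values 25 were identical to the reported ones, because the alternative left that gene's probe set and value as they were. Of the other 47, 36 moved by less than the SD between probe sets. The exception to the 2-fold limit was Upk1b with a pseudocount of 64 (0.90). Averaged over probe sets, Bnc2 came to 1.13 and Tcf21 to 1.08, and the median of the 10 genes to 1.11. Filters changed no value and only removed genes, so they say nothing about stability. With the median on either array the median difference was 3.04 over 8 genes, 6 of which passed through the dox array alone. With the 75th percentile on either array 3 genes and 3 probe sets were left, Wt1, Bnc1 and Bnc2, with a median of 3.77. These passed through the dox array alone, which fixes their direction as higher, though not a size of 2-fold. With the median on both arrays 2 genes and 2 probe sets were left, 1 higher and 1 lower, with a median of 0.0541. Without probe sets ending in _x_at or _s_at, Wt1 gave no value, 1 probe set was lower and the median over 9 genes was 1.39. Wt1 lay between 3.56 and 4.92, Bnc1 between 3.28 and 3.97, Upk3b between 2.76 and 4.82, Lrrn4 between 1.17 and 1.47 and Gpm6a between -1.51 and -1.08 under the alternatives. Both scalings left the counts of marker genes and probe sets as they were. Applied to the other lists, a step added after seeing the data, they changed no count of higher genes. The lower ones became 1 (Nes) instead of 0 among Wt1 targets under both, 3 instead of 2 among neural genes under both, and 1 (Tead3) instead of 0 among signalling genes with each array divided by its median. No paired analysis was possible because each condition has 1 array.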
